A study of Mus musculus with 6 samples.

Results

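Ferritin storage and the iron regulatory proteins were examined through 8 genes, taken by symbol from the deposited gene table: Fth1, Ftl1, Ncoa4, Pcbp1, Pcbp2, Aco1, Ireb2 and Fbxl5. All 8 were found among the 45777 genes listed, and all 8 were among the 17274 genes tested. The RNA came from the livers of male C57BL/6 mice on a high-fat diet (HFD) with 60 kcal percent fat, which the study's methods start at 8 weeks of age. The controls were 3 littermates homozygous for a floxed ferroportin gene (Fpn flox/flox, called LT), and the other 3 mice carried the same floxed alleles together with Alb-Cre (called Fpn-LKO), a transgene in which the albumin promoter drives Cre recombinase in hepatocytes. Both groups therefore share the floxed allele, which came from a 129S line and was backcrossed to C57BL/6J, and the diet. No Cre-bearing mouse without the floxed alleles and no mouse on normal chow is among these 6 libraries, so effects of Cre itself, or of the diet, cannot be told apart from the deletion or seen here. The diet is read from the library names, the age at sampling is not given in the sources used here, and each RNA sample is treated as 1 mouse, since nothing says that samples were pooled. Cells of the liver other than hepatocytes keep ferroportin in this model and contribute to the RNA.

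Ferritin is a hollow shell of heavy chains, which oxidize ferrous iron, and light chains, which help it to form a mineral core, and it is the main iron store of hepatocytes. PCBP1 and PCBP2 are RNA-binding proteins that also deliver iron to ferritin, and NCOA4 carries ferritin to the lysosome, where the iron is released. The iron regulatory proteins IRP1, encoded by Aco1, and IRP2, encoded by Ireb2, bind a hairpin called the iron-responsive element (IRE) when iron is scarce, which blocks translation where the hairpin lies in the 5′ UTR and protects the mRNA from decay where it lies in the 3′ UTR. FBXL5 is the iron-sensing subunit of the ubiquitin ligase that removes IRP2. Much of this control acts on translation and protein stability, which read counts do not measure.

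The hairpin that ties these genes together was searched in the GENCODE transcripts of GRCm38 (mm10), to show which mRNAs carry it. The letters searched were a C, 5 bases, CAGTGN, and 5 bases that pair with the first 5, with G-T pairs allowed, on the transcript strand. Of 20899 protein-coding genes with an annotated 5′ UTR, 31 held such a stretch there, or 0.148%. Among the 8 genes, Fth1 and Ftl1 held it and the other 6 did not. The site lay in the 5′ UTR at chr19:9982731-9982760 on the plus strand for Fth1 and at chr7:45459779-45459808 on the minus strand for Ftl1. Slc40a1, the ferroportin gene, held one in its 5′ UTR at chr1:45925465-45925494 on the minus strand. Tfrc, the transferrin receptor, held 4 in its 3′ UTR, of which the one at chr16:32631218-32631247 on the plus strand is shown. Not every annotated coding transcript held the site shown: it was in 4 of 5 for Fth1, 1 of 2 for Ftl1, 1 of 4 for Slc40a1 and 1 of 3 for Tfrc. The counts per gene do not tell these transcripts apart. The 30 bases are written 5′ to 3′ as DNA, with the hexaloop in capitals.
Fth1: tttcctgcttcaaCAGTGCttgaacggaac
Ftl1: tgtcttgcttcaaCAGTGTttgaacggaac
Slc40a1: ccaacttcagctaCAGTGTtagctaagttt
Tfrc: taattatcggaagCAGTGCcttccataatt
The Fth1 and Ftl1 sites were identical at 27 of 30 bases, and those of Ftl1 and Slc40a1 at 13 of 30. A match of letters is a description of the sequence and was not tested for binding.

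Total reads on genes lay between 43086184 and 47778683 per library. Slc40a1, the targeted gene, had 154, 180 and 126 CPM (reads relative to the library size as scaled by the TMM method) in LT replicates 1 to 3. It had 143, 143 and 176 CPM in Fpn-LKO-labelled livers, so the count of the targeted gene was not lower there. The deposited table gives 1 count for the whole gene, in which a deleted part cannot be seen apart, and every direction below rests on the sample labels. The paper reports loss of ferroportin from the hepatocytes of this line by other assays, which were not analysed here. The 5 hepatocyte markers summed to between 60670 and 75756 CPM in LT and between 63357 and 69268 CPM in Fpn-LKO-labelled livers. The 8 Kupffer cell and macrophage markers summed to 278 to 373 CPM in LT against 228 to 498 CPM in Fpn-LKO-labelled livers, and the highest sum was that of Fpn-LKO replicate 3. The 6 blood and erythroid markers summed to 351 to 942 CPM in LT against 474 to 1243 CPM in Fpn-LKO-labelled livers. The 8 endothelial and stellate markers summed to 624 to 677 CPM against 604 to 641 CPM, and the 3 neutrophil markers to 1.21 to 1.53 CPM against 1.20 to 2.05 CPM, with Ly6g at 0. Of the 4 pancreas markers, Prss2, Cpb1 and Pnlip had no read in any library, and the sum overlapped between the groups, with 10.4 to 27.0 CPM against 12.6 to 16.1 CPM. The groups overlapped for all 6 marker lists. In bulk liver RNA, a change in the number of cells of a type cannot be told apart from a change in the RNA per cell. The small RNAs Rn7s1 and Rn7s2 together took between 13.4% and 35.9% of the TPM of a library. Since TPM has a fixed total, this moves the TPM of every other gene, so libraries are compared below in CPM and TPM serves to compare genes.

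Per transcript length, the light chain was by far the most abundant of the 8 genes. Ftl1 had 2027 to 4452 TPM over all 6 libraries, which placed its mean at rank 47 of all genes listed. Fth1, the heavy chain, had 142 to 256 TPM over all 6 libraries, and the mean of Ftl1 was 16.0 times that of Fth1. Aco1 and Ncoa4 followed, with 62.1 to 89.6 TPM and 52.9 to 83.7 TPM. Their ranges overlapped, and Aco1 was above Ncoa4 in 4 of 6 libraries. Ireb2 had 14.7 to 26.3 TPM, Fbxl5 14.8 to 22.2 TPM and Pcbp2 9.33 to 23.8 TPM, and these neighbours in the order overlapped as well. Pcbp1 was the lowest with 8.29 to 15.8 TPM, and although its range overlapped that of Pcbp2, it was below Pcbp2 in all 6 libraries. Ftl1, Fth1, the pair of Aco1 and Ncoa4, and the remaining 4 genes thus formed 4 levels whose ranges did not overlap. Within the pair of iron regulatory proteins, the Aco1 mRNA was 2.69 to 5.06 times as abundant per length as the Ireb2 mRNA, with overlapping groups (exact two-sided permutation test, p = 0.3).

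**Figure D1:**
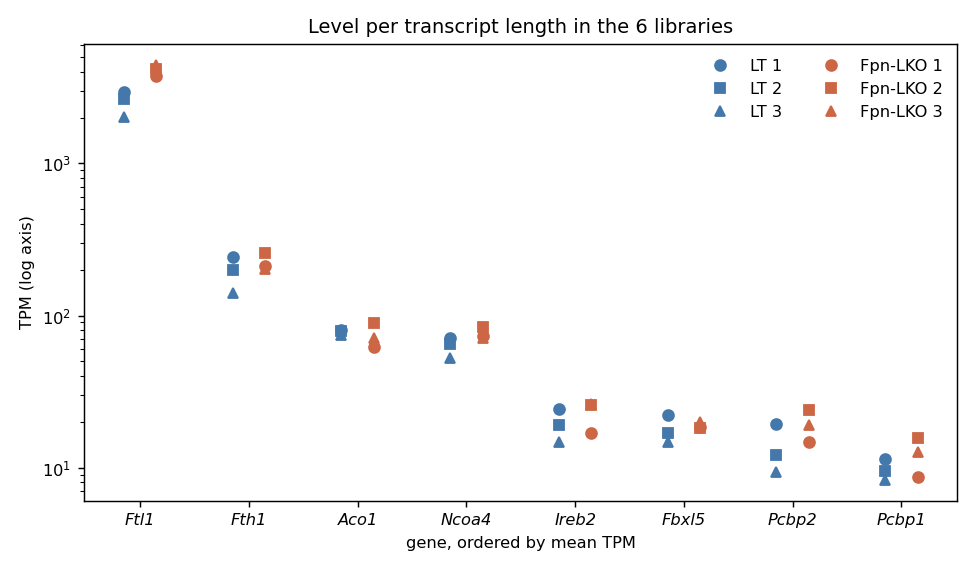
TPM on a log axis for the 8 genes, ordered by their mean, with 1 point per library (blue LT, orange Fpn-LKO). Ftl1 lies between 2027 and 4452 TPM, above all other genes in all 6 libraries, and Pcbp1 is lowest by mean.

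Of the 8 genes, 0 had an adjusted p-value under 0.05 between the groups by the quasi-likelihood (QL) F-test of edgeR, adjusted after Benjamini and Hochberg over all genes tested. Over all 17274 genes that share was 0.0232%, so few calls of any kind were made. At an unadjusted p-value under 0.05 there was 1 of the 8, Ftl1, where the share over all genes was 4.8% (2.62% higher and 2.19% lower). DESeq2's Wald test also called 1 of the 8 after adjustment, again Ftl1, against 0.417% of all genes, while edgeR's exactTest, the study's own choice, called 0 of the 8, against 0.365%. The groups did not overlap for 2 of the 8, Ftl1 and Ncoa4, both higher in Fpn-LKO-labelled livers, where 10.6% of all genes had groups that do not overlap and 5.25% had them in this direction (5.34% in the other). The median log2 fold change of the 8 genes was 0.18, with 7 of 8 above 0, beside a median of -0.0040 and a share above 0 of 49.4% over all genes tested. Without LT replicate 3 the median of the 8 was 0.10, with 5 of 8 above 0, and with any other library left out it was 0.15 to 0.25, with 6 or 7 above 0. With 3 samples against 3, no exact permutation p-value for 1 gene can fall under 0.1.

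The groups were apart for the light chain of ferritin and overlapped for the heavy chain. Ftl1 (NCBI gene 14325, chromosome 7 of GRCm38, 45457944 to 45459886) had 2029, 2055 and 1712 CPM in LT replicates 1 to 3, against 2928, 2707 and 3266 CPM in Fpn-LKO replicates 1 to 3. All 3 libraries labelled Fpn-LKO were above every LT library, and the gap between the groups was wider than the range within LT. LT averaged 1932 ± 191 CPM and Fpn-LKO 2967 ± 282 CPM (mean ± SD of 3), a fitted fold change of 1.54 with a 95% interval from 1.16 to 2.04. On the log2 scale this was 0.62 with a standard error of 0.17. The adjusted p-value was 0.926 by the QL test of edgeR, 0.332 by exactTest and 0.00960 by DESeq2's Wald test, so that the call depended on the test. Ftl1 was ranked 158 of 17274 by its unadjusted p-value (0.00847 by the edgeR QL test), while 13.4% of all genes had an absolute log2 fold change at least as large. The log2 fold change was 0.55 without Fpn-LKO replicate 3, the library with the highest Kupffer cell and macrophage markers, and 0.54 without LT replicate 3. Leaving out 1 library cannot set those markers apart from whatever else differs in it, and their part in the difference was not tested.

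Fth1 (NCBI gene 14319, chromosome 19, 9980600 to 9985111) had 163, 151 and 116 CPM in LT against 161, 162 and 143 CPM in Fpn-LKO-labelled livers. The groups overlapped, and only LT replicate 3 lay apart from the other 5 libraries. LT averaged 143 ± 24.1 CPM and Fpn-LKO 155 ± 10.4 CPM (mean ± SD of 3), and the fold change was 1.08 with a 95% interval from 0.853 to 1.38 (adjusted p = 0.995 by the QL test of edgeR). The interval leaves room for a difference of up to 1.38-fold in the heavy chain mRNA, and without LT replicate 3 the log2 fold change was -0.013.

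**Figure D2:**
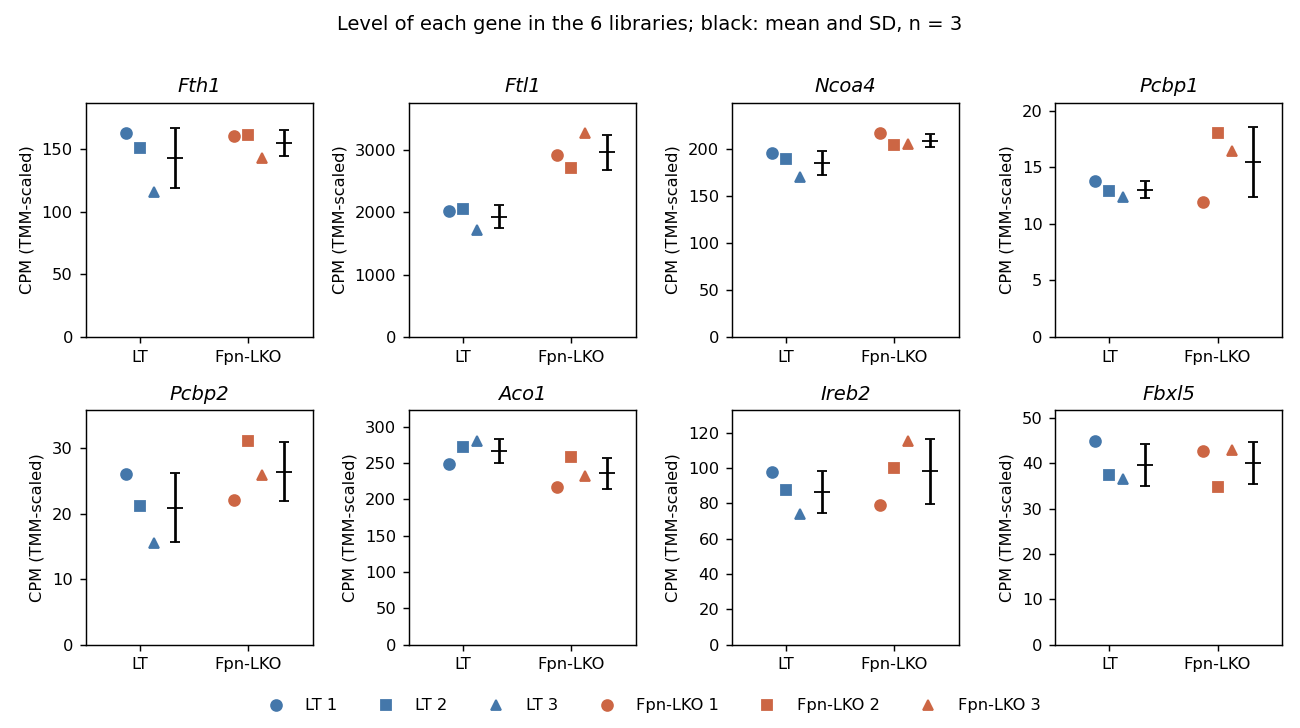
TMM-scaled CPM of each gene by library (symbols, replicates 1 to 3) in LT and Fpn-LKO, with the mean and SD of 3 mice in black and every axis starting at 0. Ftl1 and Ncoa4 are the 2 genes whose groups do not overlap, and LT replicate 3 is the lowest library for 5 of the 8 genes.

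Set against each other within a library, the chains gave a measure that no scaling between libraries can change. The ratio of Ftl1 to Fth1 TPM was 12.1, 13.2 and 14.3 in LT replicates 1 to 3, against 17.7, 16.3 and 22.2 in Fpn-LKO replicates 1 to 3. The groups did not overlap, with means of 13.2 ± 1.10 and 18.7 ± 3.06 (SD, n = 3 each), and the exact two-sided permutation test gave p = 0.1, the smallest possible. Ftl1 made up 86.2%, 86.9% and 86.5% of the summed TPM of the 8 genes in LT and 90.2%, 89.1% and 91.4% in Fpn-LKO-labelled livers. The light chain thus took a larger share of this group of mRNAs in each of the 3 libraries labelled Fpn-LKO than in any LT library. The ratio and the share both contain the Ftl1 values given above and are no observation apart from them.

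Ftl1 has several processed copies in the genome, and the reads of such copies cannot be separated from its own with certainty. A search of its transcripts found 7 listed genes away from its locus with at least 90% identity over at least 300 bases. The deposited table lists all 7 as pseudogenes. GENCODE gives Ftl1-ps1 2 coding transcripts, so the hairpin search counted it among its 31 protein-coding genes. Of the 7 copies, 4 had at least 10 CPM in every library. Ftl1-ps1, the closest in length with 97.3% identity over 930 bases and the same 30 bases at the hairpin, had 62.7, 71.5 and 46.1 CPM in LT against 109, 79.5 and 105 CPM in Fpn-LKO-labelled livers. Ftl2-ps had 35.2 to 43.7 CPM in LT against 50.2 to 64.9 CPM in Fpn-LKO-labelled livers. Gm15590 had 29.0 to 37.1 CPM and 42.3 to 53.4 CPM, and Gm12164 had 11.1 to 14.6 CPM and 15.7 to 19.98 CPM. All 4 had groups that do not overlap, with log2 fold changes from 0.47 to 0.71 beside 0.62 for Ftl1, and none passed the adjustment (adjusted p from 0.823 to 0.982 by the QL test of edgeR, unadjusted p from 0.00512 to 0.0193). The copies together were 6.50% to 7.24% of the reads of Ftl1 and its copies, with overlapping groups (exact two-sided permutation test, p = 0.8). Since their reads may be reads of Ftl1, they are not read as separate observations. With their reads added to those of Ftl1, the log2 fold change stayed at 0.62 (adjusted p = 0.973 by the QL test of edgeR). Fth1 had 1 such listed copy, Gm6977, with 17 reads over all 6 libraries, so its count is little touched by listed copies. Gm15590, Gm12164 and the other copies outside the gene lists were chosen by the sequence search after values had been seen.

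**Figure D3:**
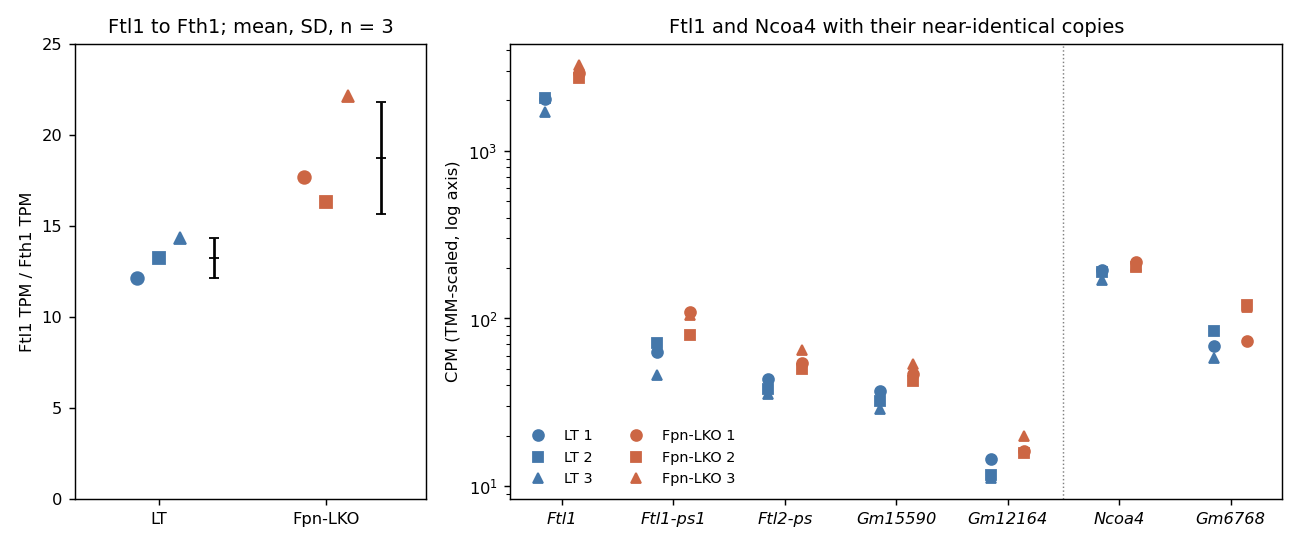
Left, the ratio of Ftl1 to Fth1 TPM by library with mean and SD of 3 mice, where the LT points lie between 12.1 and 14.3 and the Fpn-LKO points between 16.3 and 22.2. Right, TMM-scaled CPM on a log axis for Ftl1 with its 4 copies and for Ncoa4 with its copy, 1 point per library (blue LT, orange Fpn-LKO), where each Ftl1 copy is displaced in the same direction as Ftl1.

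Ncoa4 (NCBI gene 27057, chromosome 14, 32159879 to 32179855), the receptor that carries ferritin to the lysosome, had 195, 189 and 170 CPM in LT against 216, 204 and 204 CPM in Fpn-LKO-labelled livers. The groups did not overlap, but the distance between the highest LT library and the lowest library labelled Fpn-LKO was small beside the range within LT. LT averaged 185 ± 13.1 CPM and Fpn-LKO 208 ± 6.85 CPM (mean ± SD of 3), a fold change of 1.13 with a 95% interval from 0.944 to 1.35 (adjusted p = 0.982 by the QL test of edgeR). Ncoa4 also has a listed pseudogene, Gm6768, with 99.6% identity over 1883 bases. Gm6768 had 68.5, 84.5 and 58.1 CPM in LT against 73.8, 120 and 117 CPM in Fpn-LKO-labelled livers, with overlapping groups. Its share of the reads of both genes ranged from 25.5% to 37.1%, far more than the copies of Ftl1 held, and was highest in Fpn-LKO replicates 2 and 3. The level of Ncoa4 is uncertain to that extent. With the reads of Gm6768 added, the log2 fold change was 0.29 in place of 0.17 (adjusted p = 0.982 by the QL test of edgeR).

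Pcbp1 and Pcbp2, which encode the iron chaperones, had the fewest reads of the 8 genes, between 511 and 841 for Pcbp1 and between 643 and 1453 for Pcbp2. Counting error was at most 4.42% of the Pcbp1 count and 3.94% of the Pcbp2 count. Pcbp1 (NCBI gene 23983, chromosome 6, 86524480 to 86526189) had 13.8, 12.9 and 12.4 CPM in LT against 11.97, 18.0 and 16.4 CPM in Fpn-LKO-labelled livers. The LT libraries lay close together, while Fpn-LKO replicate 1 was the lowest of all 6 and the other two were the highest. The fold change was 1.19 with a 95% interval from 0.902 to 1.56 (adjusted p = 0.982 by the QL test of edgeR). Pcbp2 (NCBI gene 18521, chromosome 15, 102470450 to 102500068) had 26.0, 21.2 and 15.5 CPM in LT against 22.1, 31.1 and 25.9 CPM in Fpn-LKO-labelled livers, a fold change of 1.26 with an interval from 0.897 to 1.77 (adjusted p = 0.982 by the same edgeR test). Pcbp2 varied most within LT of the 8 genes, with an SD of 25.1% of the mean, and its groups overlapped. Pcbp1 is overlapped by 1600020E01Rik and Pcbp2 by Map3k12, each on the opposite strand, and whether the counting used the strand is not given in the sources used here.

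For the mRNAs of the iron sensors, no difference between the groups passed the test. Aco1 (NCBI gene 11428, chromosome 4, 40143265 to 40199009), which encodes IRP1 and, with an iron-sulfur cluster, the cytosolic aconitase, was the only one of the 8 genes with a negative log2 fold change. It had 248, 272 and 280 CPM in LT against 217, 258 and 231 CPM in Fpn-LKO-labelled livers. Only Fpn-LKO replicate 2 was above the lowest LT library, so the groups overlapped, and the fold change was 0.883 with a 95% interval from 0.725 to 1.07 (adjusted p = 0.982 by the QL test of edgeR). Ireb2 (NCBI gene 64602, chromosome 9, 54862658 to 54912534), which encodes IRP2, had 97.8, 87.6 and 74.0 CPM in LT against 79.0, 100.04 and 115 CPM in Fpn-LKO-labelled livers. Its values were interleaved between the groups, with a fold change of 1.14 and an interval from 0.862 to 1.49 (adjusted p = 0.988 by the same edgeR test). Fbxl5 (NCBI gene 242960, chromosome 5, 43744618 to 43782149) had 45.0, 37.4 and 36.6 CPM in LT against 42.7, 34.8 and 42.95 CPM in Fpn-LKO-labelled livers. The highest and the lowest of these values were 1 LT library and 1 library labelled Fpn-LKO. Its fold change was 1.01 with an interval from 0.815 to 1.26 (adjusted p = 0.995 by the same edgeR test), the nearest to 1 among the 8 genes. Fbxl5 is overlapped by Bst1 on the opposite strand.

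One LT library was low for most of the genes. LT replicate 3 was the lowest library for 5 of the 8 genes (Fth1, Ftl1, Ncoa4, Pcbp2 and Ireb2) and the highest for Aco1. Fpn-LKO replicate 1 was the lowest for Pcbp1 and Aco1, and Fpn-LKO replicate 2 was the lowest for Fbxl5. Over the 6 libraries, which share these mice and the difference between the groups, log2 CPM of Ftl1 had a Pearson r of 0.88 with Ncoa4, 0.49 with Fth1 and -0.80 with Aco1, given as a description. Leaving out other libraries also moved the smaller differences. The log2 fold change of Ireb2, 0.18 over all libraries, was 0.053 without Fpn-LKO replicate 3 and 0.084 without LT replicate 3, but 0.28 without LT replicate 1 and 0.32 without Fpn-LKO replicate 1. That of Pcbp2, 0.33 over all libraries, was 0.16 without LT replicate 3 and 0.20 without Fpn-LKO replicate 2, but 0.52 without LT replicate 1. That of Pcbp1, 0.25 over all libraries, was 0.12 without Fpn-LKO replicate 2 and 0.40 without Fpn-LKO replicate 1. Fth1 reached 0.22 without LT replicate 1, beside 0.12 over all libraries. Fbxl5, at 0.019 over all libraries, lay between -0.034 and 0.12 with 1 library left out. For Ftl1, Ncoa4 and Aco1 no left-out library moved the value by over 1.5 times.

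**Figure D4:**
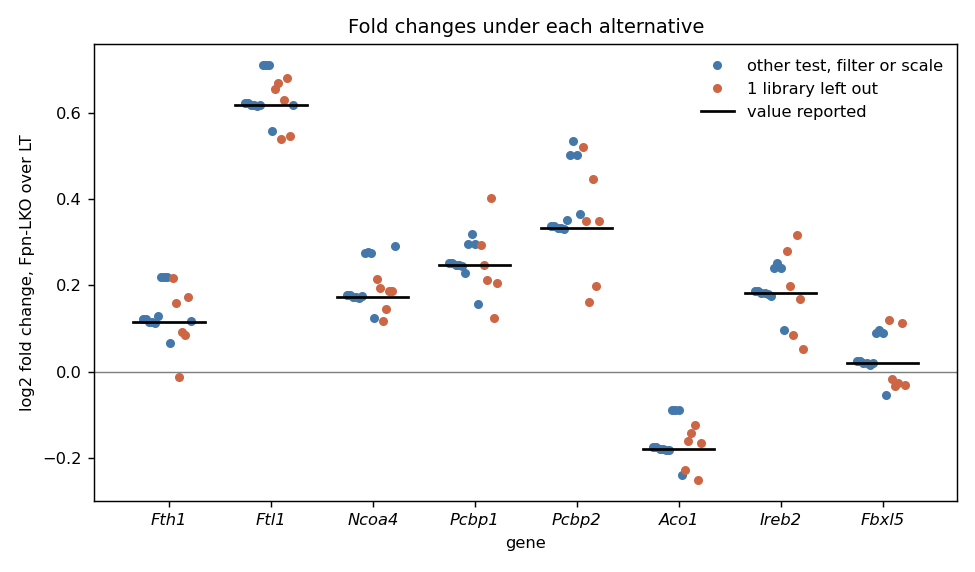
Log2 fold change of each gene, Fpn-LKO over LT, as reported (black line), with 1 library left out (orange) and under other tests, filters, scales or with copies added (blue). Ftl1 stays between 0.54 and 0.71, while values on either side of 0 occur for Fth1 and Fbxl5.

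Other genes of the pathway were taken from lists of 43 genes, of which 36 were tested. None of the 36 passed the adjusted threshold in either direction by the QL test of edgeR, where the share over all genes was 0.0232%. By the same test 4 of the 36 had an unadjusted p-value under 0.05, where the share over all genes was 4.8%. They were Alas2, Ftl1-ps1 and Ftl2-ps on the higher side and Tfrc on the lower. By DESeq2 and by exactTest, 1 of the 36 passed after adjustment, which was Tfrc with either, against 0.417% and 0.365% of all genes. The groups of 4 of the 36 did not overlap, 2 in each direction, or about the share of 10.6% over all genes. The 2 on the higher side were Ftl1-ps1 and Ftl2-ps, and the 2 on the lower side Tfrc and Ciao2b. Since the reads of Ftl1-ps1 and Ftl2-ps may be reads of Ftl1, these 2 add no observation apart from Ftl1 to either count. The median log2 fold change of the 36 was 0.040.

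The list of mRNAs known for an IRE held 8 genes, and the letters searched were not found in 4 of them, Slc11a2, Epas1, Cdc14a and Cdc42bpa. Tfrc, the receptor for transferrin-bound iron, was the only one of the 8 whose groups did not overlap, with 35.3, 28.0 and 52.6 CPM in LT against 13.1, 17.2 and 18.9 CPM in Fpn-LKO-labelled livers. Its log2 fold change was -1.24 with a 95% interval from -1.82 to -0.66 (adjusted p = 0.570 by the QL test of edgeR and 0.00172 by DESeq2). The groups of Tfrc, with hairpins in the 3′ UTR, and of Ftl1, with a hairpin in the 5′ UTR, were apart in opposite directions. Neither gene passed the adjusted threshold by the QL test of edgeR, and a part of the hairpins in either difference was not tested. Slc40a1 and Fth1, which also matched in the 5′ UTR, had log2 fold changes of 0.0073 and 0.12. Alas2, the erythroid enzyme that starts heme synthesis and another gene with a 5′ UTR match, had a log2 fold change of 0.47 with overlapping groups (adjusted p = 0.982 by the QL test of edgeR), and is also among the blood and erythroid markers. Slc11a2, an iron importer, and Epas1, the hypoxia factor HIF-2 alpha, had log2 fold changes of 0.043 and -0.030, and Cdc14a and Cdc42bpa -0.047 and -0.16.

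None of the genes that act beside the 8 in iron storage and sensing passed the adjusted threshold by the QL test of edgeR. The 8 listed genes of ferritin turnover by autophagy had log2 fold changes from -0.13 for Herc2, a ubiquitin ligase that removes NCOA4, to 0.19 for Map1lc3b, an LC3 gene of the autophagosome, and 0 of them had an unadjusted p-value under 0.05 by the same edgeR test. The 6 genes of the FBXL5 ligase and its partners ranged from -0.11 for Ciao2b to 0.15 for Skp1a, which encodes the adaptor between the F-box protein and the cullin. Ciao2b, a factor of iron-sulfur protein assembly, had 4.73 to 4.95 CPM in LT against 4.36 to 4.65 CPM in Fpn-LKO-labelled livers, without overlap (adjusted p = 0.995 by the same edgeR test). The 6 regulators of the ferritin genes, among them Nfe2l2, which encodes NRF2, and Bach1, its repressor counterpart, ranged from -0.24 to 0.18. Of the 6 chaperones and cofactors, Glrx3, which hands on iron-sulfur clusters, had a log2 fold change of 0.0082 with a 95% interval from -0.24 to 0.26. Hmox1, the heme-degrading enzyme, had 9.16 to 33.7 CPM in LT against 11.7 to 22.8 CPM in Fpn-LKO-labelled livers, so LT alone spanned the whole range. Among the 9 ferritin relatives, Ftmt and the 6 Fthl17 genes did not pass the filter on reads, and the remaining pair, Ftl1-ps1 and Ftl2-ps, are the copies of Ftl1 described above.

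**Figure D5:**
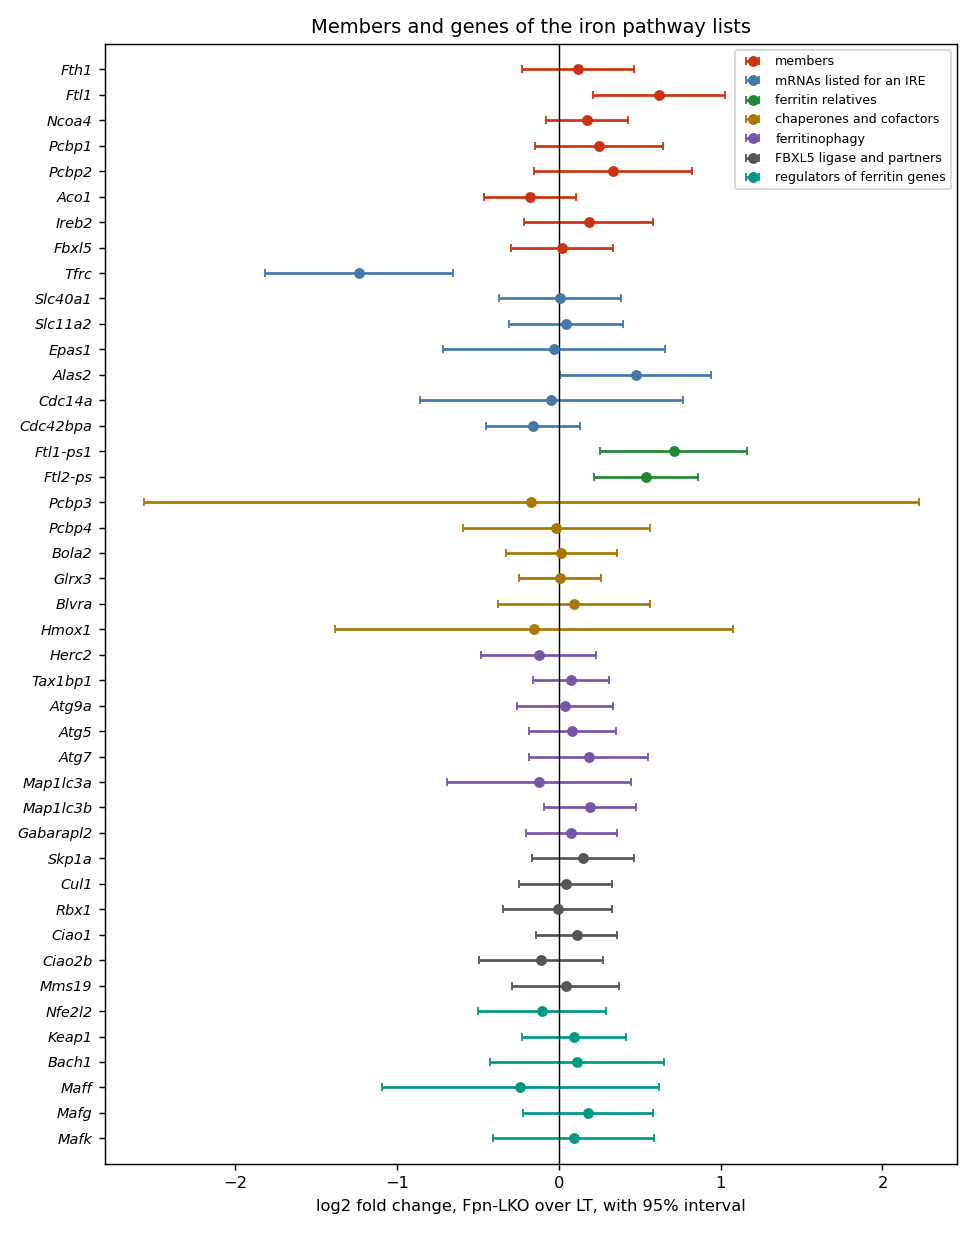
Log2 fold change, Fpn-LKO over LT, with its 95% interval from edgeR's quasi-likelihood fit for the 8 genes (red) and for tested genes of the pathway lists (other colours). The intervals of Ftl1, Ftl1-ps1, Ftl2-ps and Alas2 lie above 0 and that of Tfrc below it, before any adjustment for the number of genes.

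The genes whose log2 CPM was most like that of each ferritin chain over the 6 libraries were sought among 2228 genes with a mean of at least 50 CPM. For Ftl1 these were Nr1h3, which encodes the oxysterol receptor LXR alpha (Pearson r = 0.96), Ftl1-ps1 (r = 0.95) and Ctsb, the lysosomal protease cathepsin B (r = 0.94). Nr1h3 had 76.2, 72.7 and 69.8 CPM in LT against 85.1, 85.9 and 86.7 CPM in Fpn-LKO-labelled livers. Ctsb had 295, 309 and 282 CPM in LT against 386, 341 and 361 CPM in Fpn-LKO-labelled livers. Neither Nr1h3 nor Ctsb passed the adjustment (adjusted p = 0.982 for each by the QL test of edgeR). For Fth1 the nearest were Fam107b (r = 0.99), Abcc3, an organic anion transporter (r = 0.97), and Abhd2 (r = 0.97), all 3 lowest in LT replicate 3, as Fth1 was. These correlations rest on 6 libraries and on a choice among many genes, and are given as a description. They include the difference between the groups, so the values of Nr1h3 and Ctsb by group follow in part from that choice.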

How the data were processed

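Groups and replicate numbers of the 6 liver libraries (3 LT, 3 Fpn-LKO, all HFD) come from the sample labels, which place them in a single batch. Replicates are separate samples by those labels. The QL test set the difference between the groups against the spread between these samples, estimated with information from all genes tested. The labels give 1 µg of RNA and a stranded mRNA kit, whereas the study's methods give 0.5 µg and removal of rRNA. Per the labels, the submitters' processing notes name HISAT2 2.1.0, Bowtie2 2.3.4.1 and StringTie 2.1.3b, and build mm10. The authors deposited read counts per NCBI gene without normalization, FPKM, which also divides by length and depth, and TPM with the same total in every library. Total reads lay between 43086184 and 47778683, so counting error (at most 4.42% for the 8 genes) was below or near the spread between mice.

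From the deposited counts, R 4.3.3 and edgeR 4.0.16 computed a QL (quasi-likelihood) F-test after TMM scaling, with p-values adjusted after Benjamini and Hochberg and a threshold of 0.05. As in the study's methods, which name exactTest, a gene could lack reads in at most 1 library. This kept 17274 genes. Standard errors came from the F statistic and intervals are at 95%. The alternatives were exactTest, DESeq2 1.42.0 without independent filtering, RLE size factors, all genes with a read, filterByExpr, the replicate block, limma 3.58.1 on log2(TPM + 1) and log2(TPM + 0.1) with a mean TPM of at least 1 and on log2(TPM + 1) without that filter, and leaving out each library. Rescaling TPM to protein-coding genes and adding the reads of copies were chosen after seeing the data. Copies were found with BLAST 2.17.0 in GENCODE M21 transcripts. Scripts were tested on simulated data. The genes named are the 8 members, Slc40a1, the pathway and marker lists, and for Fth1 and Ftl1 the 3 genes of at least 50 CPM with the highest r (log2 CPM with a prior count of 2). Members and lists were chosen with earlier results of these data known. Protein, qPCR and human data were not analysed here. One gene of the pathway lists is counted there but not reported here.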

Additional observations from a re-analysis of the deposited data

How the results depend on the processing

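The count of genes past the adjusted threshold, 4 by the QL test of edgeR, was 72 with DESeq2's Wald test, 63 with exactTest and 7 with limma at either TPM pseudocount and on the protein-coding TPM scale, the last chosen after seeing the data. It was 0 to 6 when 1 library was left out, with 0 without LT replicate 2 and 1 without LT replicate 1, LT replicate 3 or Fpn-LKO replicate 2. The cause was not tested. Of the 8 ferritin and iron regulatory genes, 0 were called by edgeR and 1, Ftl1, by DESeq2, and no other alternative called any of them. The adjusted p-value of Ftl1 ranged from 0.00960 to 1.00 over its 17 alternatives and its log2 fold change from 0.54 to 0.71, from 0.54 to 0.68 with 1 library left out. The median of the 8 genes was 0.11, with 6 above 0, on the protein-coding TPM scale. The 5 genes Ncoa4, Pcbp1, Pcbp2, Aco1 and Ireb2 kept their sign under every alternative run. Fth1 turned to -0.013 without LT replicate 3 and otherwise stayed above 0, from -0.013 to 0.22 with 1 library left out. Fbxl5 turned to -0.055 on the protein-coding TPM scale and ranged from -0.034 to 0.12 with 1 library left out. Over all genes, the middle log2 fold change was 0.097 on log2(TPM + 0.1), 0.083 on log2(TPM + 1) and -0.0040 on TMM-scaled counts. The Ftl1 to Fth1 ratio is the same in FPKM as in TPM by construction.

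With the replicate number as a block, 0 genes passed and the log2 fold change of Ftl1 was 0.62 (adjusted p = 0.910 by the QL test of edgeR). Deviations of same-numbered libraries correlated at 0.13, -0.0095 and 0.045, beside -0.098 to 0.061 for the other pairs of an LT and an Fpn-LKO library. These values cannot tell whether same-numbered libraries share more than a number. Counting error was largest for Pcbp1 and Pcbp2, at most 4.42% and 3.94%. Their SD between mice was larger, at 5.77% of the mean in LT and 20.3% in Fpn-LKO for Pcbp1, and 25.1% and 17.1% for Pcbp2. Having 3 mice a group limits every member.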
